A study of Mus musculus with 7 samples.

Results

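Purinergic signalling genes were followed in macrophages sorted from GL261 tumours and from normal mouse brain. The set held 10 genes chosen by name: the nucleotide receptors P2ry6, P2ry12, P2ry13, P2ry14, P2rx4 and P2rx7, the ectonucleotidases Entpd1 and Nt5e, and the adenosine receptors Adora2b and Adora3. Probe sets assigned to exactly 1 gene symbol were taken, and 9 of the 10 genes had at least one, 19 probe sets in all, among 18193 genes on the array. Adora2b had no such probe set and was not analysed here.

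The GL261 group comprised 4 arrays (replicates 1 to 4) of macrophages from tumours of the mouse glioma line GL261 (spelled Gl261 in the labels), which had grown for 21 days in the brains of C57/Bl6 mice carrying a GFP bone marrow transplant. The normal brain group comprised 3 arrays (replicates 1 to 3) of macrophages from C57/Bl6 mice 8 weeks old. No age is given for the GL261 mice. Any difference in age or transplant between the groups cannot be told apart from the tumour. Both groups were obtained by enzymatic digestion and sorting on GFP and on the macrophage antigen that Adgre1 encodes. The labels do not state whether the normal brain mice also carried GFP marrow, whether arrays came from separate animals or whether animals were pooled, so p-values measure only the spread between these arrays.

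Cells release ATP and other nucleotides on injury and stress, and neighbouring cells sense them through P2X channels, which open on binding ATP, and P2Y receptors, which couple to G proteins and respond to ADP, UDP or UDP-sugars. Ectonucleotidases on the cell surface break the signal down: CD39 (Entpd1) converts ATP and ADP to AMP, and CD73 (Nt5e) converts AMP to adenosine, which acts on its own receptors and restrains immune cells. In brain, microglia use P2ry12 to extend processes towards sites of ATP release, and the gene is widely used as a marker of resting microglia.

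All values are MAS5 signals, a linear intensity for each probe set, already scaled by the authors to the same trimmed mean. A gene with several probe sets is shown by the brightest of them, and fold changes are on the scale of log2(signal + 6), which understates changes of dim genes. Differences were tested with limma over the 12125 genes that passed a filter on low signal, and a gene was called at a Benjamini-Hochberg adjusted p under 0.05. The ratio of 3' to 5' signal of Gapdh, a sign of RNA integrity, was 1.75 ± 0.127 (SD, n = 4) in GL261 and 2.41 ± 0.0242 (SD, n = 3) in normal brain (two-sided exact permutation p = 0.0286, the smallest that 35 splits allow). RNA integrity and group therefore cannot be told apart in the values that follow. The sorting marker Adgre1 differed by -0.39 on the log2 scale (SE 0.13, 95% interval -0.68 to -0.10, limma adjusted p = 0.0814). It was not called, although every GL261 array was below every normal brain array. Of 6 macrophage genes, Adgre1 included, 0 were called. Of the arrays of different groups, GL261 replicate 2 and normal brain replicate 1 were the most alike (r = 0.922 over the tested genes, against 0.942 to 0.954 within GL261 and 0.896 to 0.927 within normal brain), so values are also given without them where a call changes.

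All 9 measured members passed the filter. In GL261 macrophages 3 fell (P2ry12, P2ry13 and P2rx7), 1 rose (Nt5e) and 5 were not called. Of all tested genes 10.1% were called, 4.2% lower and 5.92% higher. The members had been picked with earlier results of these arrays known, so the higher share among them supports nothing. The median log2 fold change was -0.083 over the members and 0.038 over all tested genes. Groups did not overlap in 6 of the 9, against 23.4% of all tested genes. The number called was 2 without normal brain replicate 1 and GL261 replicate 2 (P2ry12 and P2ry14), 1 to 3 without any single array, and by limma 0 with a common prior variance for dim and bright genes. With every probe set tested by itself over 27022 probe sets, of which 5.45% were called (2.47% lower and 2.98% higher), 2 of the 15 tested probe sets of members were called, those of P2ry12 and P2ry13.

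**Figure D1:**
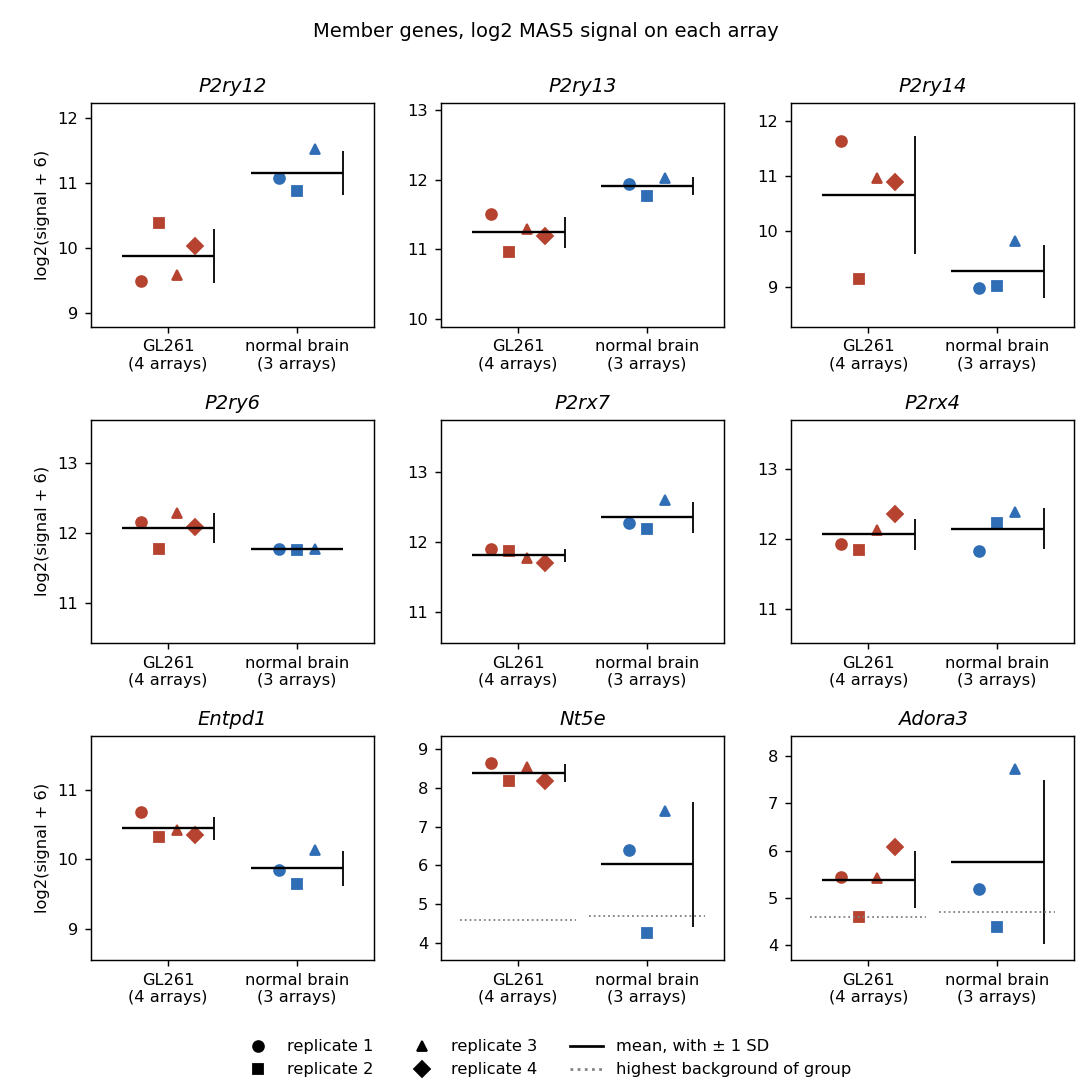
Log2 MAS5 signal of the 9 measured member genes on each array, with GL261 (4 arrays, red) left of normal brain (3 arrays, blue). Black lines are group means, vertical bars 1 SD, and dotted lines the highest background level among the arrays of a group where it falls within the panel. All GL261 points lie below all normal brain points for P2ry12, P2ry13 and P2rx7 and above them for Nt5e. They also lie above them for P2ry6 and Entpd1, which were not called.

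The ADP receptors P2ry12 and P2ry13 were both lower in GL261. P2ry12 had signals of 715, 1334, 762 and 1041 in GL261 replicates 1 to 4, against 2143, 1862 and 2940 in normal brain replicates 1 to 3. Every GL261 array was below every normal brain array, and GL261 replicate 2 came closest. The mean was 9.87 ± 0.42 (SD, n = 4) in GL261 and 11.15 ± 0.34 (SD, n = 3) in normal brain on the log2 scale, a log2 fold change of -1.28 (SE 0.25, 95% interval -1.82 to -0.74, limma adjusted p = 0.00913). Normal brain was thus 2.43-fold above GL261, and the gene stayed above background on all 7 arrays. The call held in each of the 7 fits without 1 array (adjusted p 0.00437 to 0.0344). Only a common prior variance for dim and bright genes ended it (adjusted p = 0.0574).

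P2ry13, a second Gi-coupled receptor for ADP, had signals of 2913, 2000, 2513 and 2339 in GL261 replicates 1 to 4 and 3916, 3466 and 4161 in normal brain replicates 1 to 3. The groups did not overlap, and here GL261 replicate 2 was the lowest array and not the one nearest to normal brain. The log2 fold change was -0.66 (SE 0.16, adjusted p = 0.0244). The call was lost without GL261 replicate 2, 3 or 4 (adjusted p = 0.0526, 0.0596 and 0.0612) and without normal brain replicate 1 or 3 (adjusted p = 0.0563 and 0.0693), with log2 fold changes of -0.75 to -0.57 over the 7 fits without 1 array. Without both normal brain replicate 1 and GL261 replicate 2 it was -0.56 and was not called (adjusted p = 0.104).

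Other microglial genes moved with these receptors. Of 6 tested microglia genes outside the set, 5 fell (Gpr34, Siglech, Fcrls, Cx3cr1 and Tmem119) and 0 rose, and the summed signal of the 8 measured microglia genes was 14830 to 21950 in GL261 and 31260 to 36130 in normal brain. No gene of that list was at background on all arrays, although Sall1 and Slc2a5 were above it on only 2 GL261 and 2 normal brain arrays each. Of 5 border macrophage genes 4 fell as well, with sums of 10040 to 14000 in GL261 and 19340 to 21700 in normal brain. All 5 neutrophil genes fell too, with sums of 7230 to 10340 in GL261 and 19920 to 24670 in normal brain. Among the remaining lists, 4 of 4 tested B cell, 2 of 2 red cell, 2 of 4 endothelial and 1 of 3 dendritic cell genes fell. In the other direction, 2 of 4 pericyte and fibroblast genes and 1 of 5 T and NK cell genes rose. Of 5 monocyte genes 1 rose and 1 fell, and of 4 oligodendrocyte lineage genes 3 rose and 1 fell. None of 3 regulatory T cell, 4 mast cell, 3 astrocyte and 2 neuron genes was called. In sorted bulk samples fewer cells of a type and less RNA per cell cannot be told apart, and the part of cell composition in the receptor values was not tested.

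P2ry14, the receptor for UDP-glucose and related UDP-sugars, was high on 3 of the 4 GL261 arrays. Its signals were 3171, 558, 2000 and 1893 in GL261 replicates 1 to 4, against 497, 510 and 907 in normal brain replicates 1 to 3. GL261 replicate 2 lay within the normal brain range, so the groups overlapped, and each of the other GL261 arrays was above every normal brain array. With all arrays the log2 fold change of 1.39 (SE 0.47, 95% interval 0.36 to 2.41) was not called (adjusted p = 0.0835). Without GL261 replicate 2 it was 1.89 (SE 0.29) and was called (adjusted p = 0.0031), as it was when normal brain replicate 1 was left out too (1.74, adjusted p = 0.014). GL261 replicate 2 also had a summed red cell signal (Hbb-b2, Alas2, Hba-a1) of 4439, against 68.0 to 194 on the other GL261 arrays and 9406 to 16060 in normal brain, with Hba-a1 at background on all arrays. The same array stood apart in the summed signal of 5 endothelial genes (1396, against 322 to 576 on the other GL261 arrays and 1793 to 2509 in normal brain). The neutrophil gene Ngp was also higher on it (log2 9.20, against 5.27 to 6.08 on the other GL261 arrays and 10.96 to 11.33 in normal brain). Among the GL261 arrays Camp and Ltf were likewise highest on replicate 2. Camp was at log2 9.25 there, with replicate 4 next, and Ltf at 7.49, against 3.12 to 5.85 on the other GL261 arrays. Mpo was highest on replicate 1 and S100a8 on replicate 4. The summed neutrophil signal did not set replicate 2 apart, with 10340 on it and 9767 on GL261 replicate 4. That sum mainly followed S100a8, by far the brightest gene of the list (log2 13.13 on GL261 replicate 2). The part of these differences in the P2ry14 value of GL261 replicate 2 was not tested.

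P2ry6, a UDP receptor that drives phagocytosis in microglia, showed a small difference that was not called. Signals were 4542, 3493, 4969 and 4340 in GL261 replicates 1 to 4 and 3485, 3465 and 3488 in normal brain replicates 1 to 3. The normal brain arrays were nearly identical, and GL261 replicate 2 exceeded the highest of them by only a few units of signal. This gave a log2 fold change of 0.31 (SE 0.15, 95% interval -0.02 to 0.63, adjusted p = 0.221).

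P2ry12, P2ry13 and P2ry14 are neighbours on mouse chromosome 3, within the span of Med12l, with P2ry13 next to P2ry12. Since they are close relatives in 1 cluster and differed in direction, the 250 bases upstream of their annotated starts are shown (RefSeq, GRCm38.p6, all on the minus strand, printed 5′ to 3′ so that the start follows the last base). The windows are chr3:59262986-59263235 for P2ry12, chr3:59210883-59211132 for P2ry13 and chr3:59153493-59153742 for the outermost of the 4 annotated P2ry14 starts. Capitals mark matches on either strand to GAGGAA, the core of the PU-box bound by the macrophage factor PU.1, and to TGANTCA, the AP-1 element.
P2ry12: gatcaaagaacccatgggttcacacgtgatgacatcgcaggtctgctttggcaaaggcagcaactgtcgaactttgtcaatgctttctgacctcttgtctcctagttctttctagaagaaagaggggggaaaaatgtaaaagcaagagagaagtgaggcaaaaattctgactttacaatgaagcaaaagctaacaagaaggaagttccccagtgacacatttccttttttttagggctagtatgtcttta
P2ry13: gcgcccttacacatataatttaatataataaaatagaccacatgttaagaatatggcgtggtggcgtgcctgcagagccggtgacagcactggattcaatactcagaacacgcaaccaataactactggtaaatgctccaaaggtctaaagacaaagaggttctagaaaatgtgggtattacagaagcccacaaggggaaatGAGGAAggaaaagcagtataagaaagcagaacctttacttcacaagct
P2ry14: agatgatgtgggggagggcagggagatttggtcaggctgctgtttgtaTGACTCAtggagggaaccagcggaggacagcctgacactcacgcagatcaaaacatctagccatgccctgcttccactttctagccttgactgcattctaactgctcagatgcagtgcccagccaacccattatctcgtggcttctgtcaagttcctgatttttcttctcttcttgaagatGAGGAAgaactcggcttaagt
The P2ry13 window held 1 PU-box, beginning 48 bases before the start. The P2ry14 window held 1 PU-box at 21 bases and 1 AP-1 element at 202 bases before the start. The P2ry12 window held neither motif, which says only that these letters are not in it. Over all 32851 promoter windows of this length, 23.3% held GAGGAA and 6.75% held TGANTCA. The table has 14 windows for 9 of the listed genes (Adora2b included, P2ry6 not among them), of which 7 held GAGGAA and 4 held TGANTCA. An interferon regulatory factor element was in 0 of the 14, against 2.98% of all windows. Some of the P2ry14 windows overlap and share matches. A match is not a binding site, and these arrays do not measure binding.

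Of the ATP-gated channels, P2rx7 was lower in GL261 and P2rx4 was not called. P2rx7 opens at high ATP concentrations and triggers the inflammasome and release of interleukin-1β. Its signals were 3834, 3742, 3492 and 3330 in GL261 replicates 1 to 4, against 4958, 4663 and 6250 in normal brain replicates 1 to 3. The groups did not overlap, and GL261 was lower by a log2 fold change of -0.55 (SE 0.15, 95% interval -0.87 to -0.22, adjusted p = 0.0374).

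A second P2rx7 probe set, 1419853_a_at, had 1159, 954, 1009 and 508 in GL261 and 1997, 1278 and 1288 in normal brain. These groups did not overlap either, and the log2 fold change of -0.77 (SE 0.29) was not called over all probe sets (adjusted p = 0.15). In that same fit 1439787_at, which stands for the gene, was not called either (adjusted p = 0.0616). The third, 1422218_at, was above background on 3 GL261 and 1 normal brain arrays and was not tested. The mean over all P2rx7 probe sets gave -0.44 in the fit of genes (adjusted p = 0.359). The call of P2rx7 was kept in 5 of 18 alternatives. Among fits without 1 array it held only without normal brain replicate 2 (adjusted p = 0.0464) and was lost without GL261 replicates 1 to 4 (adjusted p = 0.0644, 0.057, 0.0948 and 0.0879) and without normal brain replicates 1 and 3 (adjusted p = 0.0561 and 0.12). Without both normal brain replicate 1 and GL261 replicate 2 it was -0.61 and was not called (adjusted p = 0.0846).

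P2rx4, a channel of the plasma membrane and lysosomes known from spinal microglia in neuropathic pain, had signals of 3892, 3661, 4488 and 5218 in GL261 replicates 1 to 4 and 3626, 4781 and 5353 in normal brain replicates 1 to 3. The groups overlapped throughout their range, with a log2 fold change of -0.083 (SE 0.18, 95% interval -0.47 to 0.30, adjusted p = 0.809). Its 4 probe sets differed in sign: 1441772_at (-0.44) and 1446429_at (-0.38) were lower in GL261 and 1452527_a_at (0.62, 95% interval 0.07 to 1.16) was higher, and none was called (adjusted p = 0.559, 0.548 and 0.174). P2rx4 and P2rx7 are also neighbours, on mouse chromosome 5.

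**Figure D2:**
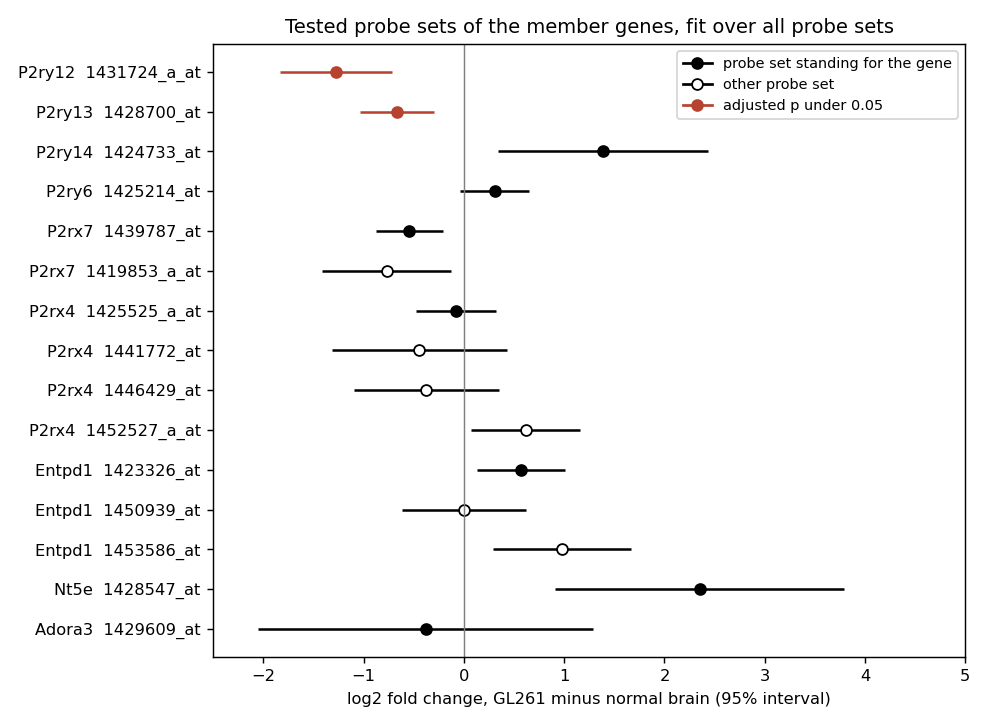
Log2 fold change, GL261 minus normal brain, with 95% intervals for the 15 tested probe sets of member genes, from the fit over all probe sets. Filled points stand for their gene in the fit of genes, and red marks the 2 probe sets called, those of P2ry12 and P2ry13. The probe sets of P2rx4 lie on both sides of 0.

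The ectonucleotidase Nt5e (CD73) was higher in GL261, and Entpd1 (CD39) was not called. Nt5e had signals of 390, 282, 362 and 284 in GL261 replicates 1 to 4, against 78.2, 13.3 and 165 in normal brain replicates 1 to 3. All GL261 arrays were above all normal brain arrays, whose values spread widely, and normal brain replicate 2 was below its background level of 17.3. The mean was 8.38 ± 0.24 (SD, n = 4) in GL261 and 6.03 ± 1.61 (SD, n = 3) in normal brain, a log2 fold change of 2.35 (SE 0.65, 95% interval 0.93 to 3.77, adjusted p = 0.0415), or 5.10-fold.

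The size and call of the Nt5e difference varied with the arrays and settings used. Without normal brain replicate 2 the log2 fold change was 1.47 and was not called (adjusted p = 0.0742). The call was also lost without GL261 replicates 1 to 4 (adjusted p = 0.1, 0.0695, 0.11 and 0.0804) or normal brain replicate 1 (adjusted p = 0.0597), and without normal brain replicate 3 it was 3.04 and was called (adjusted p = 0.0152). Without both normal brain replicate 1 and GL261 replicate 2 it was 2.60 and was not called (adjusted p = 0.0957). The mean over its probe sets gave 1.10 (adjusted p = 0.25). A pseudocount of 58 in place of 6 gave 1.57 (adjusted p = 0.025), and with a pseudocount of 1 it was 2.52 and was not called (adjusted p = 0.0503). Testing all genes without a filter (adjusted p = 0.0672) or with a common prior variance (adjusted p = 0.0926) also ended the call. The other Nt5e probe sets, 1422974_at and 1459023_at, had signals of 6.94 to 35 and 17.6 to 33.9 in GL261 and of 2.73 to 22.3 and 2.63 to 43.9 in normal brain, too dim to be tested.

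CD73 is also found on fibroblasts, endothelial cells and lymphocytes, cells that a sort on the macrophage antigen is meant to leave out. Of 4 tested pericyte and fibroblast genes 2 rose (Col1a1 and Col3a1), and the summed signal of the 5 genes of that list was 1711 to 3487 in GL261 and 362 to 1434 in normal brain. Of 5 tested T and NK cell genes Cd8a rose and 0 fell, with sums of 1881 to 3293 in GL261 and 1342 to 2850 in normal brain, and 0 of 3 regulatory T cell genes were called. Of 4 tested endothelial genes 2 fell (Cldn5 and Tek), and all 4 B cell genes fell. Of 4 tested oligodendrocyte lineage genes Sox10, Olig1 and Olig2 rose (log2 fold change 5.16, 2.77 and 2.85) and Mbp fell (-1.07). In normal brain Olig2 was above background on 0 arrays and Sox10 on 1, so the sizes of their changes are limited by background. No gene of these lists was at background on all arrays. The part of such cells, or of tumour cells, in the Nt5e value was not tested.

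Entpd1 had signals of 1638, 1276, 1366 and 1302 in GL261 replicates 1 to 4 and 916, 793 and 1122 in normal brain replicates 1 to 3. The groups did not overlap. The log2 fold change of 0.57 (SE 0.19, 95% interval 0.14 to 0.99) was not called (adjusted p = 0.0861), and it was called in 0 of 18 alternatives. A second probe set, 1453586_at, had 2375, 1265, 1147 and 1423 in GL261 and 615, 1200 and 575 in normal brain. Normal brain replicate 2 lay within the GL261 range, and the log2 fold change of 0.98 (SE 0.31) was not called with all arrays (adjusted p = 0.0942) but was without normal brain replicate 2 (1.31, adjusted p = 0.0417). The third, 1450939_at, had a log2 fold change of 0.0012 (95% interval -0.62 to 0.62).

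The adenosine receptor Adora3, a Gi-coupled receptor, was near background. Its probe set 1429609_at had signals of 37.8, 18.3, 36.6 and 61.7 in GL261 replicates 1 to 4 and 30.5, 15 and 204 in normal brain replicates 1 to 3. A single array, normal brain replicate 3, was far above all others. The log2 fold change of -0.38 (SE 0.75, 95% interval -2.01 to 1.25) was not called (adjusted p = 0.792), and it was 0.60 without normal brain replicate 3. The other Adora3 probe set, 1430482_at, was too dim to be tested, with log2 means of 4.91 ± 1.08 (SD, n = 4) in GL261 and 4.37 ± 0.56 (SD, n = 3) in normal brain, the opposite order. In the RefSeq annotation Adora3 lies within the span of Tmigd3, and the labels do not say which of the 2 genes the probes detect.

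A further 37 genes were listed as other receptors, other enzymes of extracellular nucleotides and adenosine, or release and transport. The lists include P2ry10, P2ry10b and Kcnk13, whose link to nucleotides was not tested. Of the 37 genes, 31 had a probe set and 23 were tested. Among those tested 1 rose and 1 fell, against 10.1% called among all tested genes. The remaining 21 were not called, and the median log2 fold change was 0.011 over the 23 tested and 0.038 over all tested genes.

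Panx1, a membrane channel through which cells release ATP, was the gene that rose. It had signals of 1490, 802, 1727 and 1249 in GL261 replicates 1 to 4, against 350, 283 and 144 in normal brain replicates 1 to 3. The groups were far apart, and the lowest GL261 array, replicate 2, was still above the highest normal brain array. Panx1 thus had a log2 fold change of 2.36 (SE 0.36, 95% interval 1.58 to 3.13, adjusted p = 0.00257), or 5.12-fold, and it was called in all 18 alternatives (adjusted p 0.00107 to 0.0262). The part of tumour cells or other cell types in the Panx1 value was not tested.

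Adk, the kinase that returns adenosine to AMP inside the cell, was the gene that fell. Its log2 mean was 9.61 ± 0.27 (SD, n = 4) in GL261 and 10.63 ± 0.65 (SD, n = 3) in normal brain, and the groups overlapped. The log2 fold change of -1.02 (SE 0.29, adjusted p = 0.0449) came from 1438292_x_at. In the fit over all probe sets 1438292_x_at was not called (adjusted p = 0.0685). There the other tested Adk probe sets differed in sign, with 0.39 for 1416319_at, 0.54 for 1449641_at, -0.89 for 1446068_at and -0.56 for 1446675_at, none of them called (adjusted p 0.547 to 0.749). The mean over all its probe sets gave -0.23 in the fit of genes (adjusted p = 0.759). The call was lost in 11 of 18 alternatives, including those without GL261 replicate 1, 3 or 4 (adjusted p = 0.0918, 0.112 and 0.105) and without normal brain replicate 2 or 3 (adjusted p = 0.118 and 0.143).

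Of the other receptors 0 of 6 tested genes were called by limma, and 0 had an unadjusted p under 0.05. The smallest p was that of P2rx1, an ATP-gated channel of platelets and smooth muscle (log2 fold change -0.93, limma adjusted p = 0.329). Groups did not overlap for Entpd7, an intracellular nucleotidase (1.11, adjusted p = 0.0728), Alpl, a phosphatase that can form adenosine (-1.92, adjusted p = 0.063), and Slc29a3, a lysosomal nucleoside transporter (-0.33, adjusted p = 0.139), and none of these was called. Of all tested genes 23.4% had groups without overlap, so such separation was common on these arrays. Entpd7, Alpl and Slc29a3 are named because of it, after their values were seen.

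**Figure D3:**
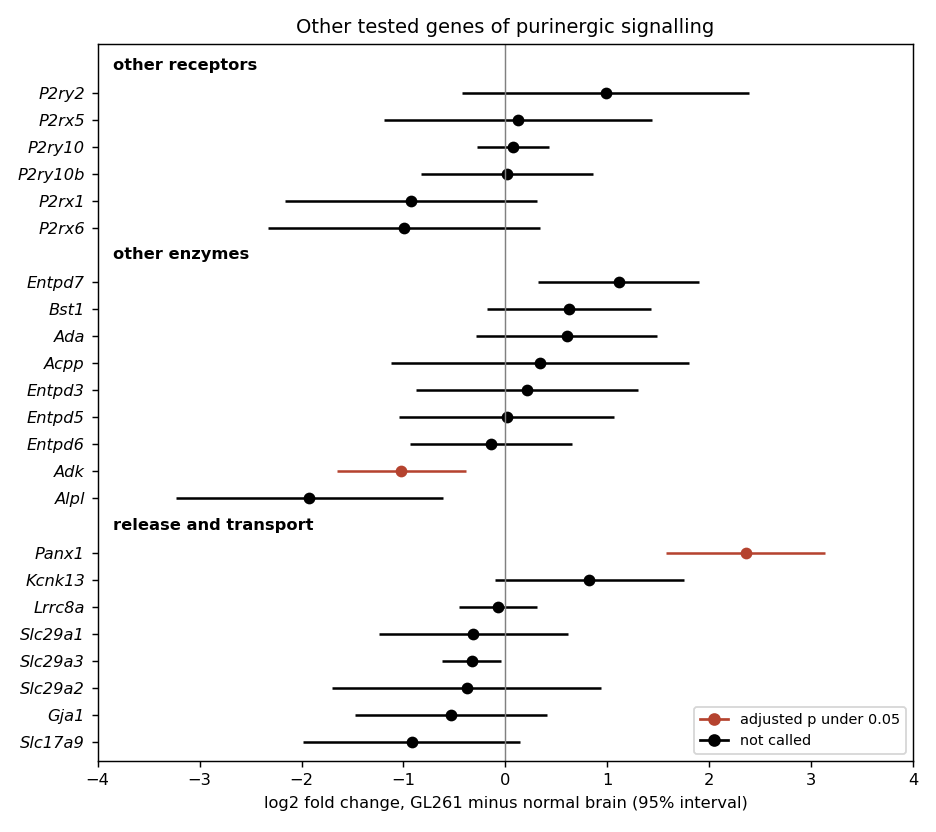
Log2 fold change, GL261 minus normal brain, with 95% intervals for the 23 tested genes of the 3 other lists of purinergic signalling, from the fit of genes. Red marks called genes. Panx1 at 2.36 and Adk at -1.02 are called, and the other 21 are not.

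The genes whose log2 values ran most like those of P2ry12 over the 7 arrays were Slc9a3r2 (Pearson r = 0.992), Rapsn (r = 0.990) and Sox4 (r = 0.989). All fell in GL261, by 3.95, 1.39 and 0.97 on the log2 scale (adjusted p = 0.00251, 0.026 and 0.0105). For Nt5e they were Tmem9 (r = 0.994), Rab5a (r = 0.982) and Spg21 (r = 0.982), with log2 fold changes of 0.64, 0.25 and 1.21, of which that of Spg21 was called (adjusted p = 0.386, 0.3 and 0.0311). These were the highest correlations among all tested genes, and each rests on 7 arrays in 2 groups. The genes were picked for likeness to members whose groups did not overlap. Their directions followed from that choice, so their adjusted p-values support nothing further. The call of Spg21 was lost without any GL261 array or normal brain replicate 1 or 2 (adjusted p 0.0563 to 0.0866) and without both normal brain replicate 1 and GL261 replicate 2 (adjusted p = 0.107). That of Rapsn was lost without GL261 replicate 1, 3 or 4 or normal brain replicate 3 (adjusted p 0.0571 to 0.0832).

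**Figure D4:**
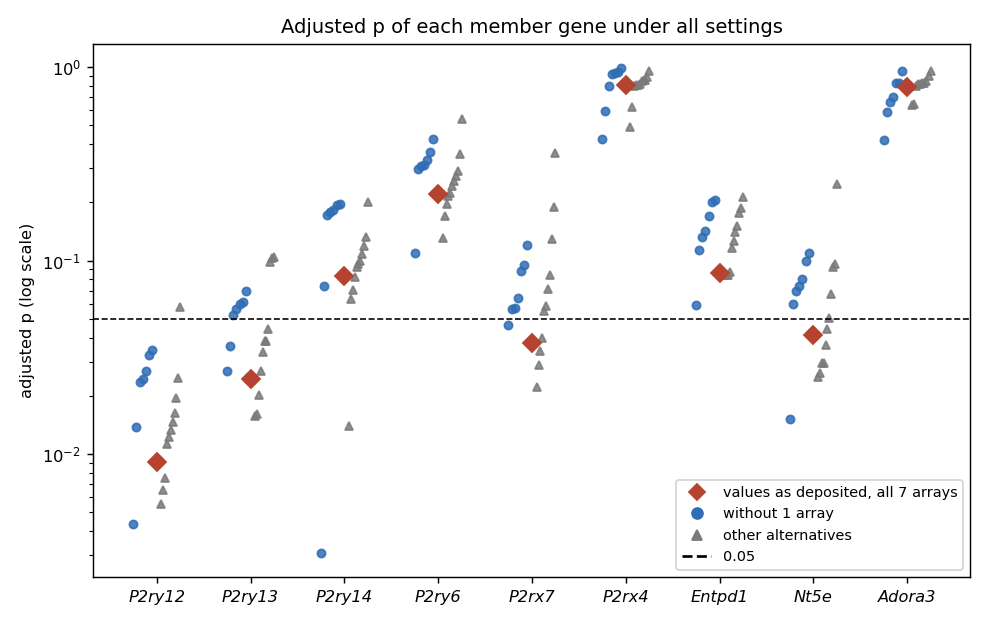
Adjusted p (log axis) of each member gene with all arrays and the values as deposited (red diamonds), in the 7 fits without 1 array (blue circles) and under the other alternatives (grey triangles), with a dashed line at 0.05. P2ry12 lies under the line in 17 of 18 alternatives, P2ry13 in 10, Nt5e in 7, P2rx7 in 5, P2ry14 in 2, and P2ry6, P2rx4, Entpd1 and Adora3 in 0.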

How the data were processed

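Per the labels, biotinylated cRNA from total RNA was hybridised to Affymetrix mouse arrays, and per the submitters' processing notes MAS5 made the deposited signal intensity values. The MAS5 version and a genome build are not given in the sources. The mean intensity without the lowest and highest 2% was 500 on every array, so no further scaling was applied. All 7 columns were used and 0 belonged to no sample. The members and lists were chosen with earlier results of these data known.

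Values were analysed as log2(signal + 6), 6 being the rounded 20th percentile of all values. Of 45101 probe sets, 34945 had 1 symbol, 932 several and 9160 none (64 controls). Symbols were checked against RefSeq (GRCm38.p6) through gene IDs, 162 symbols had no match, and 0 changed. For each of 18193 genes the brightest probe set on average was used, and the gene was tested if that mean was above the 40th percentile of all non-control probe sets (4.93), which left 12125. The groups were compared with limma 3.58.1 in R 4.3.3 with variances following the mean signal, two-sided, with Benjamini-Hochberg adjustment. All 27022 probe sets above the same level were fitted likewise. Background was the 95th percentile of 27 Bacillus control probe sets on each array (12.3 to 19.9 signal units). All members and probe sets, called pathway genes (or the smallest p), Adgre1 and the 3 genes most like P2ry12 and Nt5e were named. Plots used matplotlib 3.10.9 (Python 3.11.15).

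Alternatives were pseudocounts of 1 and 58, no filter or the 60th percentile, quantile normalization, median centring, a replicate block, variances not following the signal, array weights, the mean of probe sets, and leaving out each array or 2 arrays. Deviations from group means of same-numbered arrays correlated at 0.079, -0.008 and 0.031. This gave no sign that the numbers pair the arrays but cannot exclude it. In simulations of 12125 genes, of which 200 were changed, the test found 23.1% of log2 changes of 1 and 64.2% of log2 changes of 2, with 4.54% false calls. For 27022 probe sets, again with 200 changed, these were 9.2% and 40.4%, with 6.18% false calls, a higher false share than the threshold allows. Small changes were thus often missed in the simulations. In the data 1227 genes were called, so the shares found there can differ from the simulated ones. The simulation follows the variance model of the fit.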

Additional observations from a re-analysis of the deposited data

Results flagged for a closer look

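Among the 50 sets of 4 GL261 values examined for members and pathway genes, 3 had 1 array further from the others than Dixon's 95% limit for the gap over the range allows. About 1 in 20 such sets is expected by chance. The dim P2rx7 probe set 1422218_at was at log2 3.33 in GL261 replicate 3, with the next value at 4.97 (ratio 0.980). Entpd5, a nucleotidase of the endoplasmic reticulum, was at 7.29 in GL261 replicate 4, with the next at 8.54 (ratio 0.973). Entpd8, not tested and above background on 0 GL261 arrays, was at 4.60 in GL261 replicate 4, with the next at 3.63 (ratio 0.860).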

How the results depend on the processing

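The directions of P2ry12, P2ry13, P2rx7, Nt5e, P2ry14, P2ry6, Entpd1 and Panx1 were the same under all 18 alternatives. Member genes called numbered 4 with all arrays, 2 without a filter, with median centring, with the mean of probe sets and without both normal brain replicate 1 and GL261 replicate 2, and 0 with variances not following the signal (1 to 3 without 1 array). Probe sets of members called numbered 2 with all arrays, 4 with the 60th percentile filter and with quantile normalization, 1 without a filter, with median centring and with the replicate block, and 0 with variances not following the signal (0 to 2 without 1 array). Other pathway genes called numbered 2, and 1 without a filter, with variances not following the signal, with array weights and with the mean of probe sets, 3 with quantile normalization and with median centring, and 2 with the replicate block, both higher (1 to 3 without 1 array). Genes called numbered 1227, 810 with median centring and 455 with variances not following the signal (542 to 1171 without 1 array). Probe sets called numbered 1473, 858 without a filter, 340 with variances not following the signal and 895 without both named arrays (545 to 1332 without 1 array). With the replicate block, in which GL261 replicate 4 has no partner, 1004 genes were called, and P2rx7, Adk, Med12l, Rapsn and Spg21 lost their calls (adjusted p = 0.0713, 0.0865, 0.0774, 0.0648 and 0.054). Changes of sign were limited to values that were not called. Adora3 was 0.079 with the mean of probe sets and 0.60 without normal brain replicate 3 (-1.07 to 0.60 without 1 array). P2rx4 was 0.038 without normal brain replicate 3 (-0.24 to 0.038). The Entpd1 probe set 1450939_at was -0.0071 with quantile normalization, -0.014 with median centring and -0.051 without both named arrays (-0.19 to 0.22 without 1 array). The cause of these shifts was not tested, except that fits without an array have fewer samples. With the 60th percentile filter Adora3 and P2rx1 were not tested. With 4 and 3 arrays, the values of Nt5e, Adora3 and dim probe sets in normal brain are limited by signal near background.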

Other observations

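In the chromosome stretch that holds P2ry14, P2ry13 and P2ry12, Gpr171 and Med12l were higher in GL261, as P2ry14 was without a call, while P2ry13 and P2ry12 were lower. These genes were picked after their values were seen. Gpr171, a G protein-coupled receptor next to P2ry14, was at 12.33 in GL261 and 11.64 in normal brain (log2 fold change 0.69, SE 0.17, limma adjusted p = 0.0241, called in 12 of 18 alternatives). Its call was lost without GL261 replicate 1, 3 or 4 or normal brain replicate 2 (adjusted p 0.0507 to 0.0802). Med12l, a Mediator subunit gene whose span covers the cluster, was at 8.78 in GL261 and 7.26 in normal brain (1.52, SE 0.40, adjusted p = 0.0353, called in 9 of 18 alternatives, and 0.91 with adjusted p = 0.189 for the mean of its probe sets). Its call was lost without GL261 replicate 1, 3 or 4 or normal brain replicate 2 or 3 (adjusted p 0.055 to 0.11), and without both normal brain replicate 1 and GL261 replicate 2 (adjusted p = 0.0529). Beside P2rx4, Camkk2, a calcium-dependent kinase, differed by -0.63 on the log2 scale and was not called (adjusted p = 0.173).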
